A study of Mus musculus with 4 samples.

Results

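Genes of glycolysis and targets of the hypoxia-inducible factors (HIFs) were examined in MLO-Y4 cells, a mouse osteocyte-like line, at rest and under cyclic stretch. The set held 41 genes out of the 55450 in the count table. They were selected on their known roles with earlier results of this same loading contrast in view, so the differences between loaded and unloaded cells are given below as a description. Counts of genes called in a fit over all genes are printed for the record, beside the share of all genes called, and support nothing about the set. The set comprised 16 glycolytic enzymes, 6 genes of glucose and lactate transport and of glycolytic regulation, 6 HIF subunits and regulators, and 13 other HIF targets. Every one of the 41 names was found in the table.

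RNA-seq was available for 2 unloaded and 2 loaded libraries of the same wild-type line. Loaded cells grew on collagen-coated flexible silicone membranes and, at 60% confluency, were stretched equally in all directions (20% strain, 0.5 Hz) during 12 h. Unloaded cells grew on ordinary Corning plates and, at the same confluency, spent 12 h in the same incubator. The plate and the stretching changed together and cannot be told apart in this comparison. Only 1 line was used, and the labels do not say that the replicates came from separate cultures, so p-values measure only the spread between these libraries.

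Glycolysis turns glucose into pyruvate and, with lactate dehydrogenase, into lactate. The HIF alpha subunits are hydroxylated by the EGLN enzymes when oxygen is present, are then bound by the VHL protein and degraded, and otherwise pair with ARNT to switch on genes of glucose uptake, glycolysis, pH control and mitochondrial turnover. Because this control acts largely on the protein, transcript levels of the HIF subunits do not report HIF activity. Osteocytes lie embedded in mineralised bone, where oxygen is low, and sense mechanical load.

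Unloaded cells gave 28941994 and 30058313 counts in replicates 1 and 2, and loaded cells 32185693 and 30337236. Of 12 markers of osteocytes and osteoblasts, 6 reached 1 CPM (counts-per-million, scaled by library) in every library: Pdpn, Gja1, Phex, Col1a1, Runx2 and Cd44. Podoplanin (Pdpn), a marker of early osteocytes, was at 143 and 151.1 CPM in unloaded and 215.2 and 228.1 CPM in loaded cells. Phex, expressed in osteoblasts and osteocytes, was at 43.7 to 55.8 CPM. Other osteocyte markers were low or absent: Dmp1 was near 0.4 CPM, Sost reached 0.124 CPM in 1 library, Fgf23 stayed under 0.5 CPM, and Mepe was at 0 in all 4. The osteoblast markers Bglap and Alpl also stayed under 0.5 CPM. The cells therefore carry some osteocyte markers and lack others. The 8 markers of leukocytes, endothelium, fat and muscle summed to 12.4 and 9.6 CPM in unloaded and 6.91 and 5.64 CPM in loaded cells; Cd68 had the highest CPM of them, Adipoq was at 0 in every library, and their part in the results was not tested.

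Most of the tested genes had a log2 fold change (loaded over unloaded) a little below 0, and Car9, which encodes a membrane carbonic anhydrase, stood lowest. Of the 41 genes, 39 passed the filter on low counts; Slc2a3 had no counts and Epas1 had at most 4. The log2 fold change was below 0 for 27 of the 39 and above 0 for 12, and ranged from -1.32 to 0.35. The median was -0.12, beside -0.01 over all 16269 tested genes. In bulk RNA, fewer cells that express a gene and less RNA per cell cannot be told apart. In the plot of each tested gene by library, 22 genes had both loaded libraries below both unloaded ones and 4 had them above, where 24.5% and 22.1% of all tested genes did so; since the genes were chosen with this contrast known, nothing is read from these counts.

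**Figure D1:**
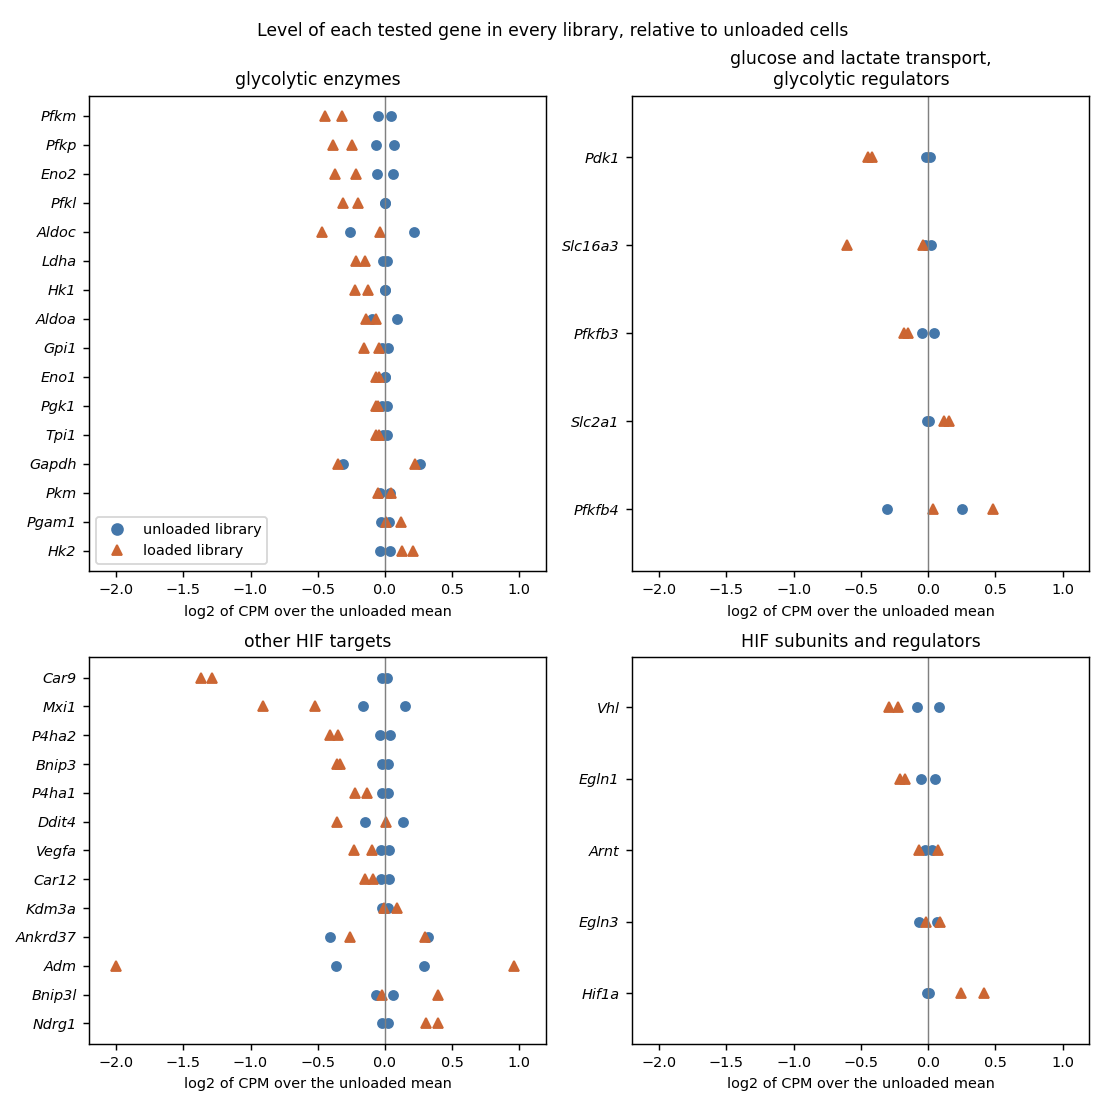
Level of the 39 tested genes in every library. The x axis is the log2 of normalised CPM over the mean of the unloaded libraries, circles are unloaded and triangles loaded libraries, and genes are grouped by role. Car9 lies furthest to the left of the genes whose groups do not overlap, and Gapdh, Adm and Ankrd37 spread as widely within a group as between groups.

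With edgeR's quasi-likelihood test, 0 of the 39 genes passed the study's threshold of an adjusted p under 0.01, which 16 of the 16269 tested genes passed (0.0983%, 14 lower and 2 higher). That count was 50 without unloaded replicate 1, 58 without unloaded replicate 2 and 0 without either loaded replicate. At an adjusted p under 0.05, 1 of the 39 was called (Car9), and 147 of all genes (0.904%) were. At an unadjusted p under 0.05, 13 were lower and 2 higher, beside 7.46% and 6.88% of all genes. With DESeq2, the tool of the study, 4 were lower (Car9, Mxi1, Bnip3 and Pdk1) and 2 higher (Ndrg1 and Hif1a) at an adjusted p under 0.01 among 37 with an adjusted p, beside 1.55% and 1.36% of genes. These shares are background only, as the genes were chosen with this contrast known.

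**Figure D2:**
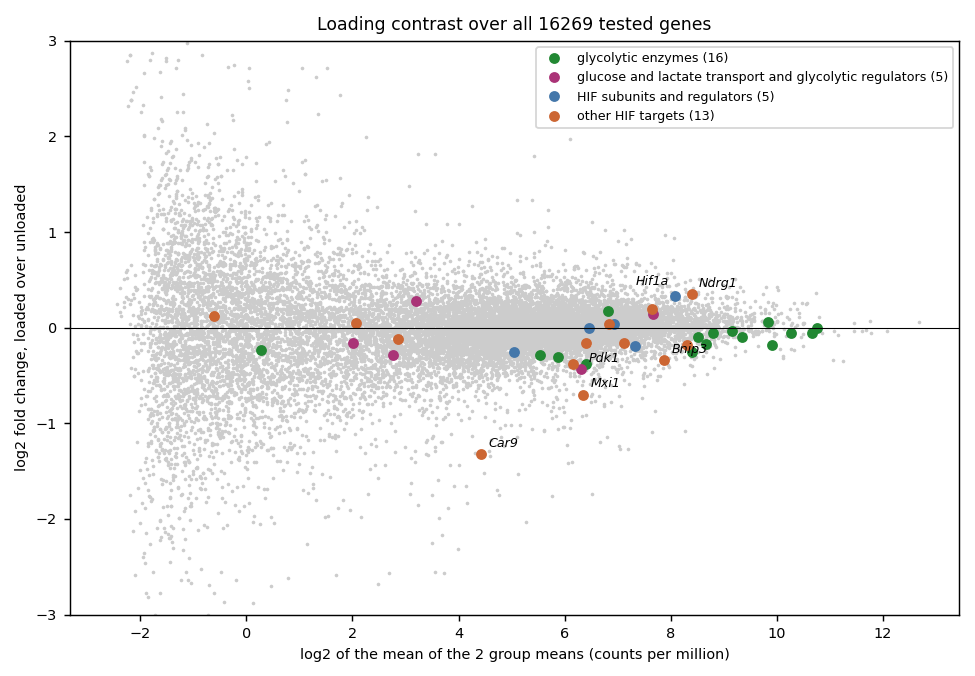
Loading contrast for all 16269 tested genes. The x axis is the log2 of the mean CPM, the y axis the log2 fold change of loaded over unloaded cells, grey points are all genes and coloured points the 39 tested genes by role; 58 genes beyond 3 log2 units are not drawn. Car9 is the lowest of the coloured points, at -1.32.

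HIFs bind a short DNA core, and the RefSeq promoter windows of these genes (GRCm38.p6, 250 bases before to 50 after each start site) show where its letters fall. The cores ACGTG and GCGTG were searched on both strands in the 55 windows of the 37 genes that matched by symbol; Bnip3l, Epas1, Ndrg1 and Slc2a3 have no entry. ACGTG was present in 19.6% and GCGTG in 32.4% of all windows, and each in 28 of the 55 (50.9%). At least 1 of them was present in 41 of 55 windows (74.5%), beside 43.8% of all 32851 windows, and in 32 of 37 genes (86.5%), beside 46.7% of all genes. By role, the genes were 13 of 16 glycolytic enzymes, 5 of 5 transport and regulatory genes, 4 of 5 HIF subunits and regulators and 10 of 11 other HIF targets. ACGTG lies within CACGTG, a palindrome that counts once on each strand and occurs in 5 of 55 windows (9.09%) and in 7.15% of all windows. A match describes the letters of a window and is not a binding site. The set was chosen partly as known HIF targets, and the windows of all genes were not matched to it for base content. Nothing is therefore read from its higher shares. Windows are printed 5′ to 3′ on the strand of the gene, with cores of either strand in capitals, for 5 genes: Car9 and its relative Car12, whose log2 fold changes were -1.32 and -0.12, Bnip3 and Pdk1, which were lower with little spread, and Pgk1, the most abundant of the enzymes per kilobase of exon. Car9 is at chr4:43506776-43507075 (+), Car12 at chr9:66713436-66713735 (+), Bnip3 at chr7:138909457-138909756 (-), Pdk1 at chr2:71872974-71873273 (+) and Pgk1 at chrX:106186850-106187149 (+).
Car9: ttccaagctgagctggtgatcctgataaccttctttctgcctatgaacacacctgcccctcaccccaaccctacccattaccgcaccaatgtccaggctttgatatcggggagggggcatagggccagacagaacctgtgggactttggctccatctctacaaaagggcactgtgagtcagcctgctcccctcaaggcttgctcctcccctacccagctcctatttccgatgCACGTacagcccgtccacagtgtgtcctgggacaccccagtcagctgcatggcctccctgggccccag
Car12: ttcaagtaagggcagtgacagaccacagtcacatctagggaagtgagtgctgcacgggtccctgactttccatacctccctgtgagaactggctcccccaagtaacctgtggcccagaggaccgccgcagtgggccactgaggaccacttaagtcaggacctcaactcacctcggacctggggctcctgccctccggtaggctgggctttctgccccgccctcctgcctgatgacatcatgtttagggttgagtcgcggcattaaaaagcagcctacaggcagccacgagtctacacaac
Bnip3: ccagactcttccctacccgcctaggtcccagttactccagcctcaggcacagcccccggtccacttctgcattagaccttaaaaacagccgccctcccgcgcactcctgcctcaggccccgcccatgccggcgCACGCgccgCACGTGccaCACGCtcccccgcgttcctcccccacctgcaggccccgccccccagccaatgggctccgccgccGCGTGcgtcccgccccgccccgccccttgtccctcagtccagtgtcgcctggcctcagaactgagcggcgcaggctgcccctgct
Pdk1: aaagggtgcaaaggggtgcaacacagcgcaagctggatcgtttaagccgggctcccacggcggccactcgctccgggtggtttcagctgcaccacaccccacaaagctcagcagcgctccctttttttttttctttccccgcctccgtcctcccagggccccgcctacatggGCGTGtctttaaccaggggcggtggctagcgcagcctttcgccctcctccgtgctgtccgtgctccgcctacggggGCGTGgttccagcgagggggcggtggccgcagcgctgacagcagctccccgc
Pgk1: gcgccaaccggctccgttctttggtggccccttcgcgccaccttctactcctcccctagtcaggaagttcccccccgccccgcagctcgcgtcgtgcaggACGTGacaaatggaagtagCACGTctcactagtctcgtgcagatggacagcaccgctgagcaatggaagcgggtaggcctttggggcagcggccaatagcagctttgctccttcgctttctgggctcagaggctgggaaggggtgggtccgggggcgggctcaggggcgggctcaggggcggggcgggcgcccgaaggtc
The Car9 window holds 1 core, on the strand opposite to the gene and starting 18 bases before the RefSeq start site. Another annotation, GENCODE M21, starts Car9 further upstream, at chr4:43506966, so there the core lies inside the gene. The Bnip3 window holds 5 and those of Pdk1 and Pgk1 hold 2 each. Pdk1 has another window, further into the gene, which holds 0 and is not printed. The Car12 window holds none, which says only that these letters are not in it.

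**Figure D3:**
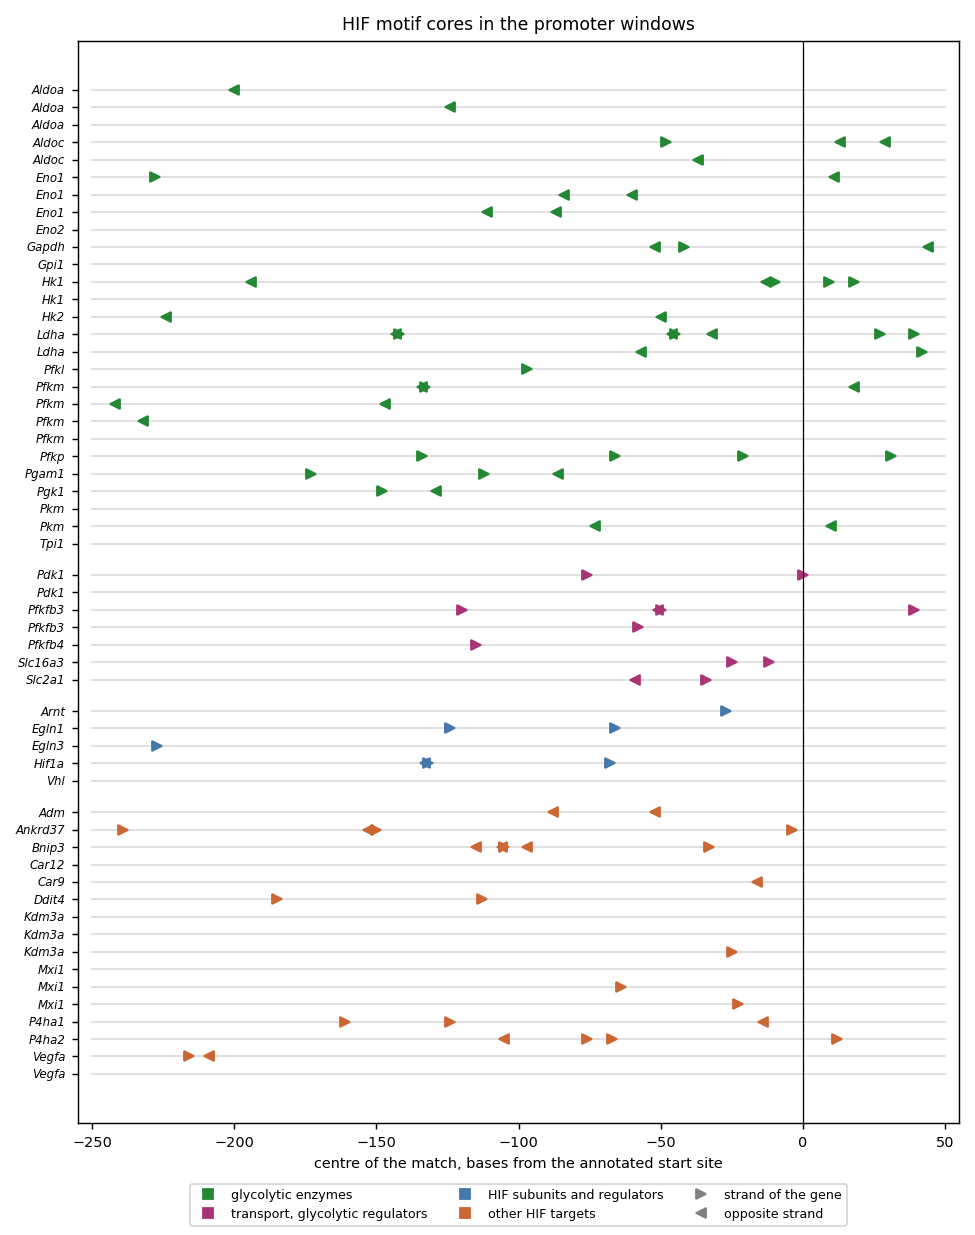
Position of HIF motif cores in the 55 promoter windows of 37 genes. The x axis is the distance in bases from the annotated start site, each grey line is 1 window, and the arrows point right for the strand of the gene and left for the opposite strand. The Car12 line is empty and the Car9 line has 1 arrow close to the start site.

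Most glycolytic enzymes had log2 fold changes a little below 0, and 0 of the 16 were called at an adjusted p under 0.01 by edgeR or DESeq2, with 6 lower and 0 higher at an unadjusted p under 0.05 in edgeR, beside 7.46% and 6.88% of all tested genes. Values were below 0 for 14 and above for 2, from -0.38 to 0.17. The median was -0.10, and -0.06 without loaded replicate 1. Groups overlapped for 5 enzymes; 10 were lower and 1 higher without overlap, beside 24.5% and 22.1% of all tested genes, and nothing is read from these counts. Their summed level was 9839 and 9693 CPM in unloaded cells and 9292 and 9361 CPM in loaded cells, a ratio of 0.955. The phosphofructokinases, which commit sugar to glycolysis, made up 3 of the lowest 4 values: Pfkm at -0.38, Pfkp at -0.31 and Pfkl at -0.25, with the neuronal enolase Eno2 at -0.29. Pfkl, the most abundant of the phosphofructokinases, was at 366.1 and 365.7 CPM in unloaded and 319.1 and 295.2 CPM in loaded cells. Both loaded libraries were below both unloaded ones.

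Lactate formation and the trapping of glucose were among the steps whose groups did not overlap. Ldha, the lactate dehydrogenase subunit that favours lactate formation, was at 1042 and 1016 CPM in unloaded and 887.8 and 926.2 CPM in loaded cells, with a log2 fold change of -0.18 (SE 0.0525). Hexokinases trap glucose in the cell, and their 2 main forms differed in direction. Hk1 was at 430.5 and 428.6 CPM in unloaded and 394.5 and 368.2 CPM in loaded cells, with a log2 fold change of -0.17. Hk2, the form that responds to HIF, was at 109.5 and 103.7 CPM in unloaded and 123 and 116.5 CPM in loaded cells, with a log2 fold change of 0.17. Neither pair of groups overlapped.

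Most other enzymes differed little. Eno1 was at 1659 and 1660 CPM in unloaded and 1606 and 1583 CPM in loaded cells, with a log2 fold change of -0.06, and Pgk1 and Tpi1 were also at -0.06 (Pgk1 at -0.08 to -0.03 with 1 library left out). Aldoa was at 635.2 and 720.6 CPM in unloaded and 613.3 and 648.2 CPM in loaded cells, and its groups overlapped. Pgam1 was at 914.6 and 875.9 CPM in unloaded and 970.7 and 900.9 CPM in loaded cells, also overlapping. Pkm, the pyruvate kinase, had a log2 fold change of 0.00 and Gpi1, which converts glucose-6-phosphate to fructose-6-phosphate, -0.10 (-0.16 to -0.04 with 1 library left out). Aldoc was near 1 CPM, at -0.23 (-0.47 to 0.03 with 1 library left out), with overlapping groups. Gapdh, often used as a reference gene, differed more within groups than between them: 686.7 and 462 CPM in unloaded and 449.8 and 669.9 CPM in loaded cells.

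Within the glycolytic enzyme families, the same isozyme led in both conditions (levels per kilobase of exon, mean of 2 libraries, no test). In the plot of isozyme make-up, Aldoa and Pgam1 each made up 99.8% of their family and Ldha all of it, since Ldhb had no counts. Eno1 made up 85.5% ± 0.261 (SD, n = 2) of enolase in unloaded and 85.4% ± 1.41 in loaded cells, and Pfkl 61.9% ± 1.21 and 63.8% ± 0.308 of phosphofructokinase. In hexokinase, the shares differed between conditions by more than the spread of their libraries. Hk1 made up 72.9% ± 0.884 in unloaded and 67.5% ± 0.0472 in loaded cells, and Hk2 25.9% ± 0.6 and 30.3% ± 0.294. The shares of Pfkl, Pfkm and Eno2 did not overlap between conditions either. Pfkm made up 32.6% ± 0.96 and 30.7% ± 0.354 of phosphofructokinase, and Eno2 3.02% ± 0.181 and 2.56% ± 0.21 of enolase. All of these shares depend on the gene length used, since the exon union counts exons that few transcripts hold. The mean length of coding transcripts has its own limit, as short annotated transcripts lower it. For Hk1 it is 1244 bases, beside 4278 for the longest coding transcript. With the mean length of coding transcripts, the Hk1 share was 90.2% and 87.7% and the Hk2 share 9.48% and 11.7%. Per kilobase of exon, Pgk1 was the most abundant of the 41 genes (mean of the 4 libraries 550 CPM per kilobase), followed by Pgam1 (462), Pkm (345) and Eno1 (302). With the mean coding transcript length, Pkm came highest, at 1680 CPM per kilobase, and Eno1 next, at 1460. That length is 1027 bases for Pkm and 1113 for Eno1, beside 2432 and 2027 for their longest coding transcripts. Neither length settles the order.

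**Figure D4:**
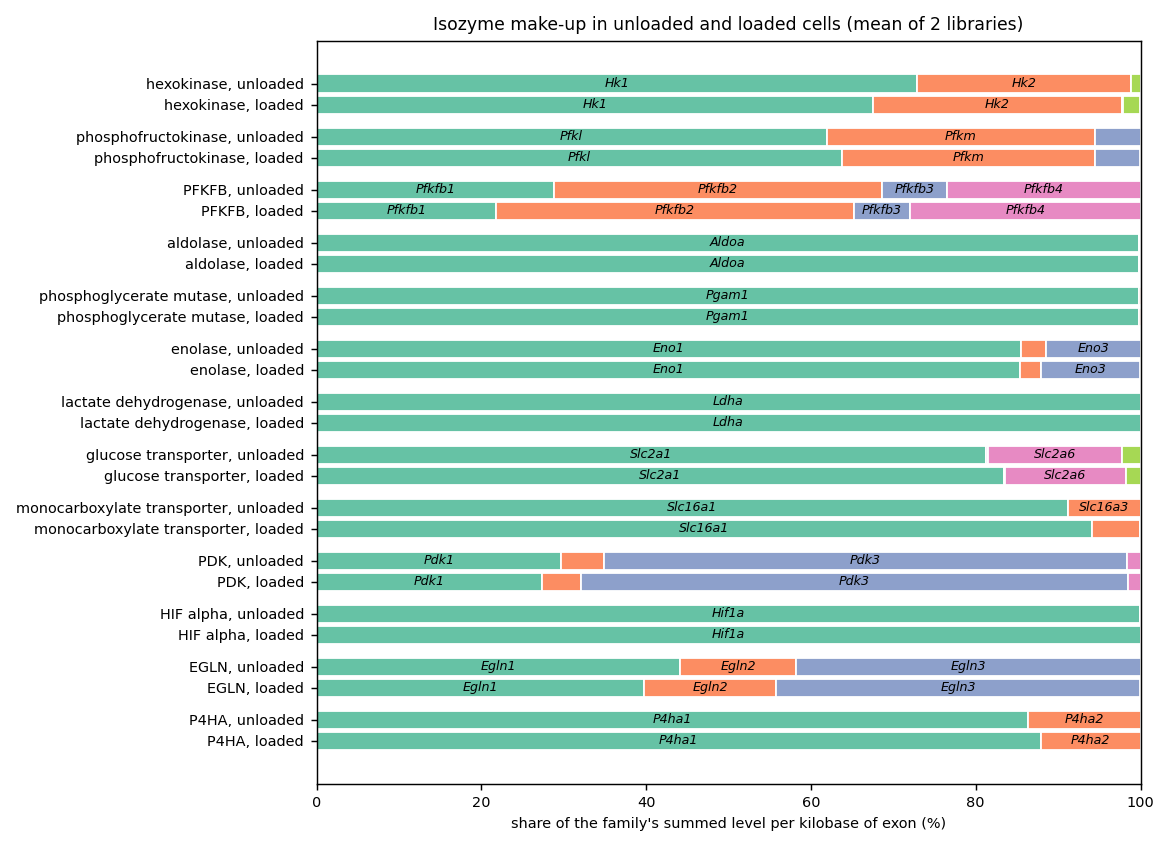
Share of each gene in the summed level of its family, in unloaded and loaded cells. The x axis is the percent of the family's level per kilobase of exon, and each bar is the mean of 2 libraries. Hk1 is a smaller and Hk2 a larger part of hexokinase in loaded cells, while Aldoa, Pgam1, Ldha and Hif1a fill nearly all of theirs.

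Among genes of glucose and lactate transport and glycolytic regulation, the clearest difference was in Pdk1, a kinase that switches off pyruvate dehydrogenase and so limits the entry of pyruvate into the TCA cycle. Pdk1 was at 90.28 and 92.49 CPM in unloaded and 68.5 and 67.07 CPM in loaded cells. Both loaded libraries were lower, with a log2 fold change of -0.43 (SE 0.0819). Pdk1 made up 29.7% ± 0.668 and 27.4% ± 1.2 of the 4 genes of its family per kilobase, below Pdk3 with 63.5% ± 0.819 and 66.3% ± 3.49 (unloaded and loaded cells). The shares of this family were added after the data were seen. Slc2a1, the main glucose transporter, was at 194 and 192.7 CPM in unloaded and 215.2 and 210.5 CPM in loaded cells, higher in both loaded libraries by 0.14 on the log2 scale. It made up 81.3% ± 0.33 and 83.4% ± 1.82 of 5 glucose transporter genes per kilobase. Slc2a3 had 0 counts in each library, where 3 counts, the limit that a count of 0 allows, would be 0.093 to 0.103 CPM (counting error only). The lactate exporter Slc16a3 was at 7.334 and 7.557 CPM in unloaded and 7.252 and 4.899 CPM in loaded cells. The related Slc16a1 was the larger part of the 3 transporters, 91.2% ± 0.628 in unloaded and 94.1% ± 1.45 in loaded cells. Pfkfb3 and Pfkfb4, which set the level of the activator of phosphofructokinase, had log2 fold changes of -0.16 and 0.28, and the groups of Pfkfb4 overlapped; with 1 library left out, Pfkfb4 ranged from 0.03 to 0.58. Pfkfb2 led this family, with 39.8% ± 5.66 and 43.4% ± 0.317. The 5 tested genes had a median of -0.16, and of -0.04 without loaded replicate 2.

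HIF subunits and regulators did not share a direction. Their median log2 fold change was 0.00 over 5 tested genes, from -0.25 to 0.33; it was -0.09 with DESeq2 and -0.10 without a filter, where Epas1 is included. Hif1a, the main oxygen-regulated subunit, was at 240.7 and 242.3 CPM in unloaded and 285.6 and 321.8 CPM in loaded cells. Both loaded libraries were higher, with a log2 fold change of 0.33 (SE 0.0758). It made up 99.9% of the 3 HIF alpha genes in unloaded cells. Epas1, which encodes the HIF2 alpha subunit, had 4, 4, 4 and 0 counts, and no fold change is given. Egln1, the main oxygen-sensing hydroxylase, was at 165.8 and 177.6 CPM in unloaded and 148.5 and 152.1 CPM in loaded cells, with a log2 fold change of -0.19 without overlap. Egln3, itself a HIF target, was at 115.2 and 125.9 CPM in unloaded and 128 and 119 CPM in loaded cells, with overlapping groups. Per kilobase, Egln1 made up 44.1% and Egln3 41.8% of the 3 EGLN genes in unloaded cells, against 39.8% and 44.1% in loaded cells. Vhl had a log2 fold change of -0.25, with loaded cells lower in both libraries, and Arnt of 0.00.

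Other HIF targets held both extremes. Of 13 genes, 8 had a log2 fold change below 0 and 5 above, with a median of -0.16, and of -0.09 without unloaded replicate 2. Car9, a HIF target that hydrates carbon dioxide at the cell surface and takes part in pH control, had 902 and 917 counts in unloaded and 384 and 375 counts in loaded cells, or 31.06 and 30.26 CPM against 11.9 and 12.58 CPM. The loaded libraries were both far below the unloaded ones, with a log2 fold change of -1.32 (SE 0.112), a ratio of 0.399. Leaving out any 1 library gave -1.37 to -1.28; the call at an adjusted p under 0.05 was lost without either loaded replicate. Car12, the other membrane carbonic anhydrase of the set, was at 7.369 and 7.656 CPM in unloaded and 6.788 and 7.046 CPM in loaded cells, with a log2 fold change of -0.12. Among 16 carbonic anhydrase genes per kilobase, Car9 made up 23.4% ± 0.71 in unloaded and 10.7% ± 0.056 in loaded cells, while Car5b and Car13, found inside the cell, were at 37% and 34.3% in unloaded and 40.9% each in loaded cells. The order depends on the gene length: with the mean coding transcript length, the shares in unloaded cells were 45% for Car5b, 26% for Car9 and 22.5% for Car13, and in loaded cells 51.2%, 12.1% and 27.7%.

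**Figure D5:**
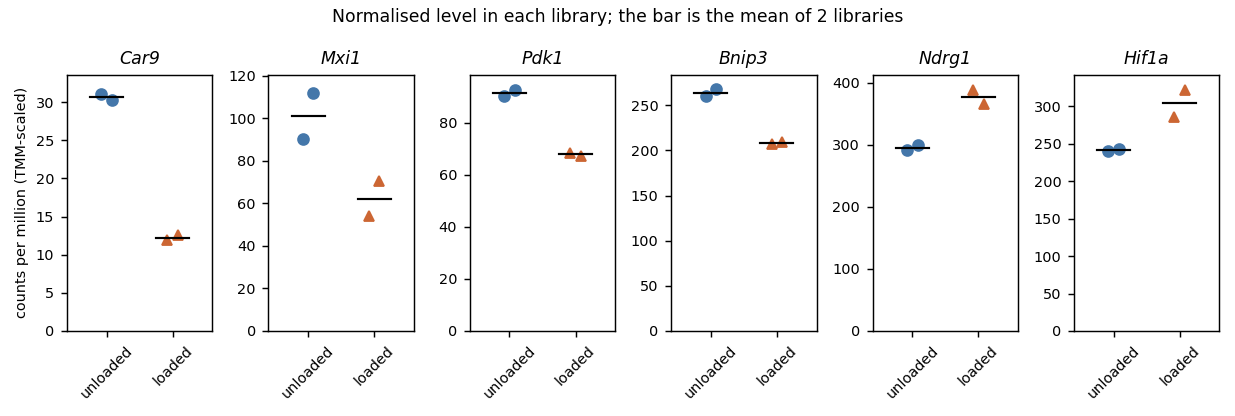
Normalised level of 6 genes in each library. The y axis is TMM-scaled CPM from 0, circles are unloaded and triangles loaded libraries, and the bar is the mean of 2. Car9, Mxi1, Pdk1 and Bnip3 are lower and Ndrg1 and Hif1a higher in both loaded libraries.

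Mxi1, which encodes an antagonist of MYC, was at 90.32 and 111.9 CPM in unloaded and 54.02 and 70.33 CPM in loaded cells, with a log2 fold change of -0.70 (SE 0.162). The groups did not overlap, although the replicates of each differed. Bnip3, which marks mitochondria for removal, was at 260.3 and 267.4 CPM in unloaded and 206.6 and 209 CPM in loaded cells, with a log2 fold change of -0.34 (SE 0.0601). Its relative Bnip3l had a log2 fold change of 0.20 with overlapping groups, and of -0.02 to 0.40 with 1 library left out. The collagen prolyl hydroxylase subunits were lower in both loaded libraries, at -0.18 for P4ha1 and -0.38 for P4ha2. P4ha1 was 86.3% of this pair in unloaded and 87.9% in loaded cells. Vegfa, the angiogenic factor, was at -0.16, and at -0.23 to -0.09 with 1 library left out. Ndrg1, a stress-responsive gene, went the other way: 291.4 and 299.4 CPM in unloaded and 389 and 365.4 CPM in loaded cells, with a log2 fold change of 0.35 (SE 0.0624). Its groups did not overlap. The groups of Ddit4, Kdm3a, Ankrd37 and Adm overlapped, and Adm had between 5 and 36 counts.

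Several of these genes have near-identical copies, which the counting could split. Of the 50-base words in the longest coding transcript, 82.5% for Gapdh, 72.2% for Eno1, 68% for Pgk1, 62.4% for Bnip3 and 41.5% for Pgam1 occur in other annotated genes, so their counts are uncertain. The annotated copy Eno1b had 19.5% as many counts as Eno1. The share was 14.6% for Ndrg1, 7.25% for Hif1a, 5.02% for Car9 and 2.95% for Mxi1, and Pdk1 and P4ha2 had none. In GENCODE M21 (GRCm38), Car9 lies at chr4:43506966-43513729 and its exons overlap 214 bases of the antisense gene Gm12454. Exons of other genes overlap Mxi1 by 194, Hif1a by 330, Bnip3 by 504 and Ndrg1 by 556 bases on the opposite strand, and Hif1a by 148 bases on its own strand. The strandedness of the counting is not given in the sources used here, so reads from these partners cannot be told apart.

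Other genes of the same pathways, listed for their roles with earlier results of these data known, showed no common direction. Of 126 genes found in 6 lists, 100 were tested; edgeR called 0 at an adjusted p under 0.01 and 1 under 0.05, with 13 lower and 17 higher at an unadjusted p under 0.05, beside 7.46% and 6.88% of all tested genes. DESeq2 called 4 lower and 3 higher at an adjusted p under 0.01 among 94 with an adjusted p, beside 1.55% and 1.36%. The median log2 fold change was 0.01. The gene past 0.05 in edgeR was Hmox1, the heme oxygenase, at 105 and 106 CPM in unloaded and 193 and 207.9 CPM in loaded cells. It was higher in both loaded libraries, with a log2 fold change of 0.93 (SE 0.0717, edgeR adjusted p = 0.0107), and did not pass 0.01.

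Among 33 tested HIF targets outside the set, 19 were below 0 and 14 above, with a median of -0.05. Without overlap, 14 were lower and 8 higher in loaded cells, beside 24.5% and 22.1% of all tested genes, and 10 were lower and 5 higher at an unadjusted p under 0.05, beside 7.46% and 6.88%. Of 31 with an adjusted p in DESeq2, 4 were called lower and 2 higher, beside 1.55% and 1.36%. They were Ero1l, Fam162a, Gys1 and Zfp395, and Irs2 besides Hmox1; all but Hmox1 were chosen after their values were seen. The log2 fold changes of these 5 were -0.39, -0.51, -0.56, -0.82 and 0.58. The most abundant per kilobase were Mif, P4hb and Lox, at -0.04, -0.22 and 0.26. In the pentose phosphate pathway, which supplies NADPH, 5 of 7 genes had a log2 fold change above 0, with a median of 0.20. Without overlap, 5 were higher and 0 lower in loaded cells, beside 22.1% and 24.5% of all tested genes. Pgd, the gene DESeq2 called there, was at 320.5 and 321.5 CPM in unloaded and 410.3 and 408.4 CPM in loaded cells (log2 fold change 0.35, edgeR adjusted p = 0.061). Taldo1 and G6pdx, the most abundant with Pgd, were at 0.20 and 0.24.

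The remaining lists had medians from 0.00 to 0.11. Of 16 tricarboxylic acid cycle genes, 8 were below 0 and 8 above, with a median of 0.00; Sdhd and Cs were among the most abundant, at 0.13 and 0.14. Of 27 tested genes of glycolysis and pyruvate handling outside the set, 12 were below 0 and 15 above, with a median of 0.01; Bsg, Pdha1 and Dld led, at -0.05, 0.06 and 0.04. Of 12 other HIF regulators, 3 were below 0 and 9 above, with a median of 0.11; Cited2, Elob and Cul2 led, at -0.01, 0.00 and 0.00. Of 5 tested carbonic anhydrases outside the set, 2 were below 0 and 3 above, with a median of 0.06; Car5b, Car13 and Car6 led, at -0.04, 0.06 and 0.73. EdgeR called none of these genes at an adjusted p under 0.05.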

How the data were processed

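Gene counts of 2 unloaded and 2 loaded libraries were analysed, grouped by the sample labels. Per the submitters' processing notes and the study's methods, the authors depleted ribosomal RNA, mapped trimmed reads to mm10 with HISAT2 2.1.0, assembled transcripts with StringTie 1.3.5 and deposited raw counts per gene made from assembled coverage. Annotation release and strandedness are not given in the sources used here; all 55450 identifiers match GENCODE M21. In R 4.3.3, low genes were removed by edgeR 4.0.16 (filterByExpr, minimum of 10 counts) and the rest scaled by TMM and tested by quasi-likelihood, with Benjamini-Hochberg adjustment over the 16269 tested genes. DESeq2 1.42.0, limma 3.58.1 (voom), RLE and upper-quartile factors, other filters, the replicate block and leaving out each library were alternatives. The procedure was tested on simulated data. For Aldoa, listed in 2 rows, the row with the larger total was used. Levels per kilobase use the union of exons; motif and repeat searches and figures used Python 3.11.15 and RefSeq promoter windows. The members and lists were chosen with earlier results of these data known. Shares within the Pdk and carbonic anhydrase families were added after the data were seen. Per-library values are given for Car9, members called by edgeR (0.05) or DESeq2 (0.01), Hif1a, Epas1, Egln1, Egln3 and leading isozymes; outside genes are those past 0.05 in edgeR and the 3 most abundant of each list, of which 1 is not reported here, with 5 DESeq2 calls named after their values were seen.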

Additional observations from a re-analysis of the deposited data

How the results depend on the processing

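With 2 libraries per group, counts of calls moved with the method. Over all genes, 16 calls became 147 at an adjusted p under 0.05, 363 with DESeq2, 29 with at least 10 counts in every library, 0 with no filter, and 0 to 58 when 1 library was left out (50 without unloaded replicate 1, 58 without unloaded replicate 2, 0 without either loaded replicate). For the 39 tested glycolysis and HIF genes, 0 became 1 at 0.05, 6 with DESeq2, 1 with at least 10 counts in every library and 0 to 1 with a library left out; for the other pathway genes, 0 became 1, 7, 1 and 0 to 1, and 1 with limma-voom. The cause was not tested. With the replicate block, 0 genes were called in all. Libraries of the 2 groups share only a replicate number: the correlation of replicate differences between groups was -0.0846 over 16269 genes.

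Medians kept their sign when a library was left out for glycolytic enzymes (-0.13 to -0.06), transport and regulators (-0.20 to -0.04) and other HIF targets (-0.22 to -0.09); HIF subunits and regulators, at 0.00, took both signs (-0.07 to 0.07), and went to -0.09 with DESeq2 and -0.10 without a filter, both of which add Epas1. Of 39 genes, 29 kept their sign under every alternative run; Adm, Aldoc, Ankrd37, Arnt, Bnip3l, Ddit4, Egln3, Gapdh, Kdm3a and Pkm were at 0.00 or crossed it. With mean coding transcript length, in unloaded and loaded cells, shares were 90.2% and 87.7% for Hk1, 67.3% and 68.9% for Pfkl, 99.9% in both for Aldoa, 93% and 93.1% for Eno1, 47.1% and 52.4% for Pfkfb2, 84.3% and 86.1% for Slc2a1, 78.5% and 85% for Slc16a1, 39.3% and 41.2% for Egln3, 61% and 64.4% for P4ha1, and 100% for Hif1a in unloaded cells.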
